A study of Mus musculus with 4 samples.

Results

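Bile acid synthesis in mouse liver was followed through 10 genes: Cyp7a1, Cyp8b1, Cyp27a1, Cyp7b1, Cyp39a1, Hsd3b7, Akr1d1, Slc27a5, Baat and Nr0b2. They were found by gene symbol in the platform's annotation of a mouse Affymetrix array. All 10 had a probe set, 16 in all, and each gene is described by the brightest of its probe sets. They are 10 of 18193 genes that the array names and of 11993 genes kept after dim genes were left out (mean log2 signal above 7.67, a signal of 204), a filter that all 10 passed.

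The treated group, labelled delta MET + EGFRi, consisted of Metff/ff:ERCre+/+ mice that received tamoxifen to delete exon 16 of Met, which encodes the HGF receptor. After 4 days of rest they ate canertinib, which blocks EGFR signalling, in a diet designed to deliver 80 mg/kg/day. Control mice were littermates of the same genotype, Cre included, given corn oil, with neither tamoxifen nor canertinib. Met deletion, tamoxifen, canertinib and diet therefore cannot be told apart. The labels do not name the promoter that drives the Cre or the age or sex of the mice. Nor do they give the time of day of harvest or how many livers went into a pool. Pooled liver RNA of each group was hybridised to 1 array at day 10 and 1 at day 7, counted in treated mice from the first canertinib diet and in control mice from the end of their own rest period. Met itself had 2829 and 2433 signal units in treated livers at day 10 and day 7, against 1271 and 976 units in control livers. The signal of Met was thus higher on both treated arrays than on both control arrays. No source used here places its probe set relative to the deleted exon, so these values do not check the deletion, and the groups are those of the labels.

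The liver makes bile acids from cholesterol. In the classic pathway Cyp7a1 adds the first hydroxyl group to the sterol ring and limits the rate of synthesis, and Cyp8b1 adds a further one that separates cholic acid from the other main bile acids. The alternative pathway starts with Cyp27a1, and Cyp7b1 and Cyp39a1 act on oxysterols. Hsd3b7 and Akr1d1 then alter the ring, and Slc27a5 and Baat join the finished acid to taurine or glycine. Bile acids feed back through the receptor FXR (Nr1h4), which induces Nr0b2. Its product SHP lacks a DNA-binding domain and represses Cyp7a1 and Cyp8b1 by binding the receptors LRH-1 (Nr5a2) and HNF4A on their promoters.

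Cyp8b1 and Nr0b2 are the enzyme and the repressor whose levels are set beside each other here, and the promoter of each is shown with its motif matches. Both windows come from RefSeq (build GRCm38.p6), in which 5 of the 10 genes had a window of 250 bases before to 50 bases after the start site. Cyp7a1 was not among these 5. The Cyp8b1 window is chr9:121916256-121916555 on the minus strand and that of Nr0b2 is chr4:133553126-133553425 on the plus strand. Capitals mark matches to the LRH-1 element CAAGGNCA, the HNF4A motif CAAAGTCCA and the TATA box TATAAA.
Cyp8b1: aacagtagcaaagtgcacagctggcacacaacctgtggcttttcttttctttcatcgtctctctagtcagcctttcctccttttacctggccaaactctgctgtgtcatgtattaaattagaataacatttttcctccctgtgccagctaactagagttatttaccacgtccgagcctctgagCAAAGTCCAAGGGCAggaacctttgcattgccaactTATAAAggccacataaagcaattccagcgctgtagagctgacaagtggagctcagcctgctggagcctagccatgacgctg
Nr0b2: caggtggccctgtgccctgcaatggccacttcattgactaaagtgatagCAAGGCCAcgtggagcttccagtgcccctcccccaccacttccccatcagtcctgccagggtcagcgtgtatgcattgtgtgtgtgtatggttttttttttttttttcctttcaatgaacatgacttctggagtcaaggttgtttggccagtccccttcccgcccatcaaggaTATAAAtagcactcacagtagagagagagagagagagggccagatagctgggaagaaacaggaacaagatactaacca

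In Cyp8b1 the HNF4A match begins at position -67 and the LRH-1 match at -60 from the start site, so that they share 2 bases, and the TATA box lies at -31. In Nr0b2 the LRH-1 match begins at -201 and the TATA box at -28. Both strands were searched. Of 32851 promoter windows of the same length, 6.71% held the LRH-1 element, 0.475% the HNF4A motif and 13.6% the TATA box. The nuclear receptor hexamer AGGTCA, in 16.3% of windows, was matched by Akr1d1 alone among the 5 genes, at positions -232 and -210. The FXR inverted repeat (AGGTCA, 1 base, then its reverse complement), in 0.00913% of windows, was matched by none of the 5, nor did the windows of Cyp27a1 and Hsd3b7 match any of these motifs. A match describes the letters only. The exact FXR repeat is so rare among all windows that its absence from 5 of them says nothing about binding by FXR.

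The main pattern was a split between the days. At day 7 the treated livers held more transcript than control livers of Cyp7a1 and Cyp39a1. Cyp8b1 was already 4.11-fold lower on that day, with Nr0b2 1.12-fold higher. At day 10 Cyp7a1 was lower as well, Cyp8b1 was 31.3-fold lower, and Cyp39a1 was still 1.83-fold higher. Nr0b2 was 1.97-fold higher at day 10, short of 2-fold and rank 731 from the highest of all kept genes. Each day has 1 array per group, so daily differences have no replicate error and no test. The limma fit over both days uses 2 arrays per group, and its spread includes any change between the days. Fewer cells of a type and less RNA per cell cannot be told apart in bulk liver.

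**Figure D1:**
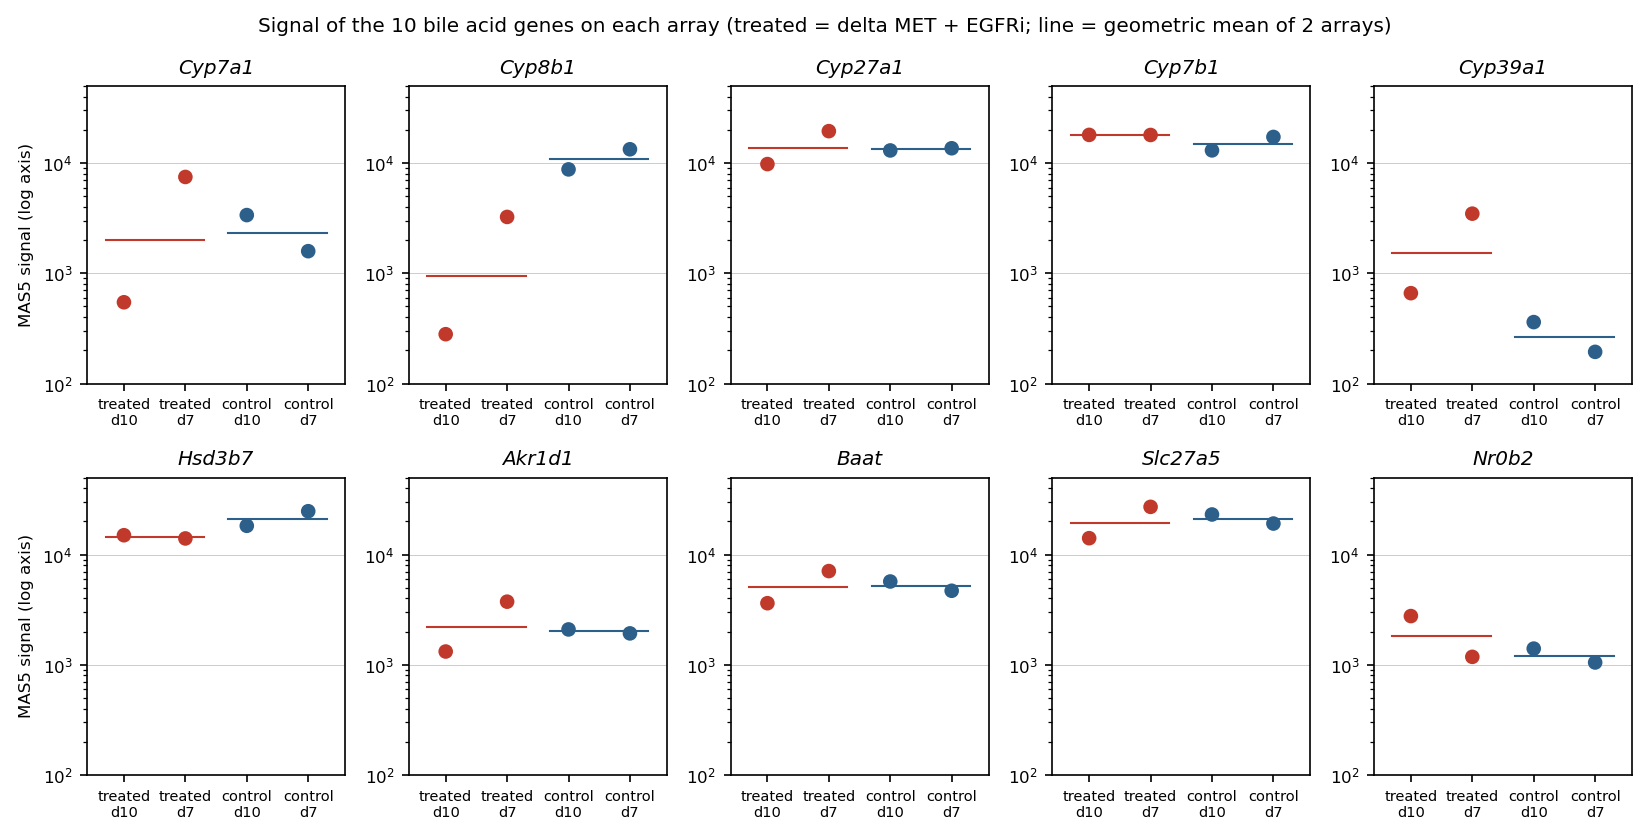
MAS5 signal (log axis) of the 10 bile acid genes on each of the 4 arrays, with treated (delta MET + EGFRi) arrays in red and control arrays in blue, and a line at the geometric mean of each group's 2 arrays. Cyp8b1 lies lower and Cyp39a1 higher on both treated arrays than on both control arrays, and the treated arrays of Cyp7a1 (546 units at day 10 and 7478 at day 7) lie on either side of both control arrays.

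Cyp7a1, the rate-limiting enzyme, had 546 signal units in treated livers at day 10 and 7478 at day 7, against 3373 and 1587 units in control livers on the same days. The treated value was the lowest of the 4 arrays at day 10 and the highest at day 7, so that the groups overlapped. Cyp7a1 was thus 6.18-fold lower at day 10 (log2 difference -2.63) and 4.71-fold higher at day 7 (2.24). Over both days the differences nearly cancelled, at -0.20 ± 1.12 (log2, SE; n = 2 arrays per group; adjusted p = 0.964 by limma).

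The change between the days was larger for Cyp7a1 in treated than in control livers. In treated livers its signal was 13.7-fold lower at day 10 than at day 7, rank 5 from the lowest among the 11993 kept genes. In control livers it was 2.13-fold higher at day 10. Of the 10 genes 1, Cyp7a1, was at least 2-fold higher at day 10 than at day 7 in control livers, as were 2.05% of all kept genes.

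Cyp8b1, which makes cholic acid possible, had 280 and 3245 units in treated livers at day 10 and day 7, against 8760 and 13336 units in control livers. Both treated arrays lay below both control arrays. The gene was 31.3-fold lower at day 10 (log2 difference -4.97), rank 6 from the lowest of all kept genes, and 4.11-fold lower at day 7 (-2.04). The log2 difference over both days was -3.50 ± 1.02 (SE, n = 2), which did not pass the test over all genes (adjusted p = 0.263 by limma). The size of the difference changed between the days, which enters the spread that the test uses.

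When the treated array of day 7 was left out, Cyp8b1 differed by -5.27 on the log2 scale (adjusted p = 1.31e-05 by limma). Leaving out the treated array of day 10 gave -1.74 (adjusted p = 0.00876). In these fits 1 treated array remained and was assumed to vary like the control arrays, which alone gave the spread. The values of Cyp7a1 then were -2.08 without the day 7 treated array (adjusted p = 0.0211) and 1.69 without that of day 10 (adjusted p = 0.0546), so that its direction turned with the day left in. Without the day 10 control array the log2 difference of Cyp7a1 was 0.35.

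Of the oxysterol enzymes, Cyp39a1 had 660 and 3474 units in treated livers at day 10 and day 7, against 361 and 194 units in control livers. Both treated arrays lay above both control arrays, most clearly at day 7. The gene, whose product hydroxylates an oxysterol that the brain releases, was 1.83-fold higher at day 10 and 17.9-fold higher at day 7, rank 13 from the highest of all kept genes on that day. Over both days the log2 difference was 2.52 ± 0.75 (SE, n = 2; adjusted p = 0.269 by limma). It was 3.72 when the treated array of day 10 was left out (adjusted p = 0.00105 by limma) and 1.32 when that of day 7 was left out (adjusted p = 0.184).

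Cyp27a1, the mitochondrial enzyme that opens the alternative pathway and also oxidises the side chain in the classic one, had 9786 and 19471 units in treated livers at day 10 and day 7, against 13012 and 13620 units in control livers. The treated values lay on either side of both control values. On the log2 scale it differed by -0.41 at day 10 and by 0.52 at day 7, and by 0.05 ± 0.34 over both days (SE, n = 2; adjusted p = 0.969 by limma). This value was -0.03 after quantile normalization.

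Cyp7b1, the oxysterol hydroxylase of the alternative pathway, varied least in treated livers. It had 18007 and 17973 units there at day 10 and day 7, against 13034 and 17247 units in control livers. Both treated values lay above both control values by a narrow margin, and the log2 difference over both days was 0.26 ± 0.23 (SE, n = 2; adjusted p = 0.693 by limma). At day 7 its log2 difference of 0.06 changed sign with quantile normalization (-0.10) and with the mean of its probe sets (-0.32). That mean includes a dim probe set that did not pass the filter (-1.23 at day 7), while the other that passed gave 0.22.

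Of the enzymes that alter the sterol ring, Hsd3b7 had 14973 and 13999 units in treated livers at day 10 and day 7, against 18228 and 24720 units in control livers. Both treated arrays lay below both control arrays. The log2 difference over both days was -0.55 ± 0.24 (SE, n = 2; adjusted p = 0.425 by limma). Akr1d1, which reduces a double bond of the ring, had 1319 and 3737 units in treated livers at day 10 and day 7, against 2093 and 1927 units in control livers. It stood below both controls at day 10 (log2 difference -0.67) and above both at day 7 (0.96), and the 2 days together gave 0.14 ± 0.47 (SE, n = 2; adjusted p = 0.929 by limma). Its direction over both days was open to the probe set, at -0.35 for the other probe set of the gene and -0.10 for the mean of the probe sets.

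The enzymes of the last steps gave the same order of arrays. Slc27a5, which activates bile acids with coenzyme A, had 14075 and 27084 units in treated livers at day 10 and day 7, against 23090 and 19109 units in control livers. Baat, which joins the activated acid to taurine or glycine, had 3619 and 7080 units in treated livers, against 5695 and 4693 units in control livers. For both genes the treated array was the lowest of the 4 at day 10 and the highest at day 7. Slc27a5 was 1.64-fold lower at day 10 and 1.42-fold higher at day 7, and Baat 1.57-fold lower and 1.51-fold higher. Their log2 differences over both days were -0.11 ± 0.34 and -0.03 ± 0.34 (SE, n = 2; adjusted p = 0.929 and 0.983 by limma).

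Nr0b2, the gene of the repressor SHP, ran the other way between the days. It had 2766 and 1180 units in treated livers at day 10 and day 7, against 1402 and 1049 units in control livers. Its highest value was that of the day 10 treated array, while the day 7 treated value lay between the 2 control values. The log2 differences were 0.98 at day 10, 0.17 at day 7 and 0.58 ± 0.41 over both days (SE, n = 2; adjusted p = 0.629 by limma). It was 1.19 without the day 7 treated array (adjusted p = 0.0542) and -0.04 without that of day 10. In treated livers Nr0b2 was 2.34-fold higher at day 10 than at day 7, while Cyp7a1 was 13.7-fold and Cyp8b1 11.6-fold lower. With 1 array per day this is a description of 2 arrays, and no relation between the repressor and the enzymes was tested.

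**Figure D2:**
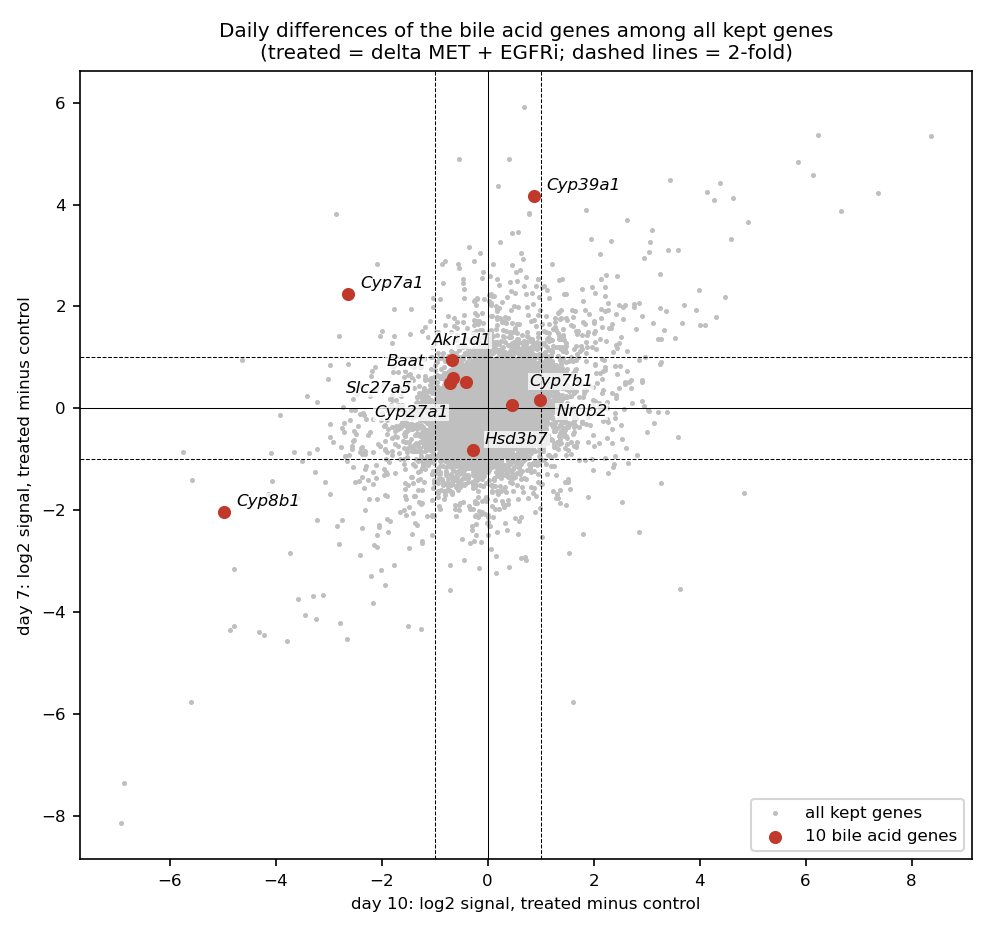
Log2 difference in signal between treated (delta MET + EGFRi) and control livers at day 10 (horizontal) and day 7 (vertical) for the 11993 kept genes (grey) and the 10 bile acid genes (red), with dashed lines at 2-fold. Cyp7a1 lies in the upper left, 2-fold higher at day 7 and 2-fold lower at day 10 as were 0.175% of kept genes, Cyp8b1 in the lower left, and Cyp39a1 at the top.

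Counted together, 0 of the 10 genes passed limma's test in either direction at an adjusted p under 0.05, against 0.375% of the 11993 kept genes that rose and 0.283% that fell. At an unadjusted p under 0.05 there were 2 of the 10, Cyp8b1 and Cyp39a1, and 1449 of all kept genes. Both treated arrays lay above both control arrays for 2 of the 10 genes (Cyp39a1 and Cyp7b1), against 20.3% of all kept genes. They lay below for 2 genes (Cyp8b1 and Hsd3b7), against 24.1% of kept genes, so that both shares were near the background.

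By a rule of size, 2 of the 10 genes were at least 2-fold lower at day 10 (Cyp7a1 and Cyp8b1), against 4.91% of kept genes, and 0 were 2-fold higher, against 5.84%. At day 7, 1 gene was 2-fold lower (Cyp8b1), against 5.16%, and 2 were 2-fold higher (Cyp7a1 and Cyp39a1), against 4.60%. Cyp8b1 was 2-fold lower at both days, as were 1.14% of kept genes. The reverse order, 2-fold higher at day 7 and 2-fold lower at day 10, was met by 1 of the 10 genes, Cyp7a1, and by 21 genes in all, 0.175% of those kept. Without a rule of size 5 of the 10 were higher at day 7 and lower at day 10 (Cyp7a1, Cyp27a1, Akr1d1, Slc27a5 and Baat), against 18.3% of kept genes.

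The medians of the 10 genes moved apart in the same way. The log2 differences of the 10 genes had a median of -0.53 at day 10 and 0.51 at day 7, while those of all kept genes had medians of 0.01 and -0.06. Within treated livers the median change from day 7 to day 10 was -0.98 (log2) for the 10 genes and 0.03 over all kept genes. In treated livers 4 of the 10 were at least 2-fold lower at day 10 than at day 7 (Cyp7a1, Cyp8b1, Cyp39a1 and Akr1d1), against 3.78% of kept genes. In control livers the corresponding medians were 0.20 for the 10 genes and -0.02 over all kept genes. The treated and control arrays of a day enter both the daily differences and these changes, so the counts are not independent of each other.

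**Figure D3:**
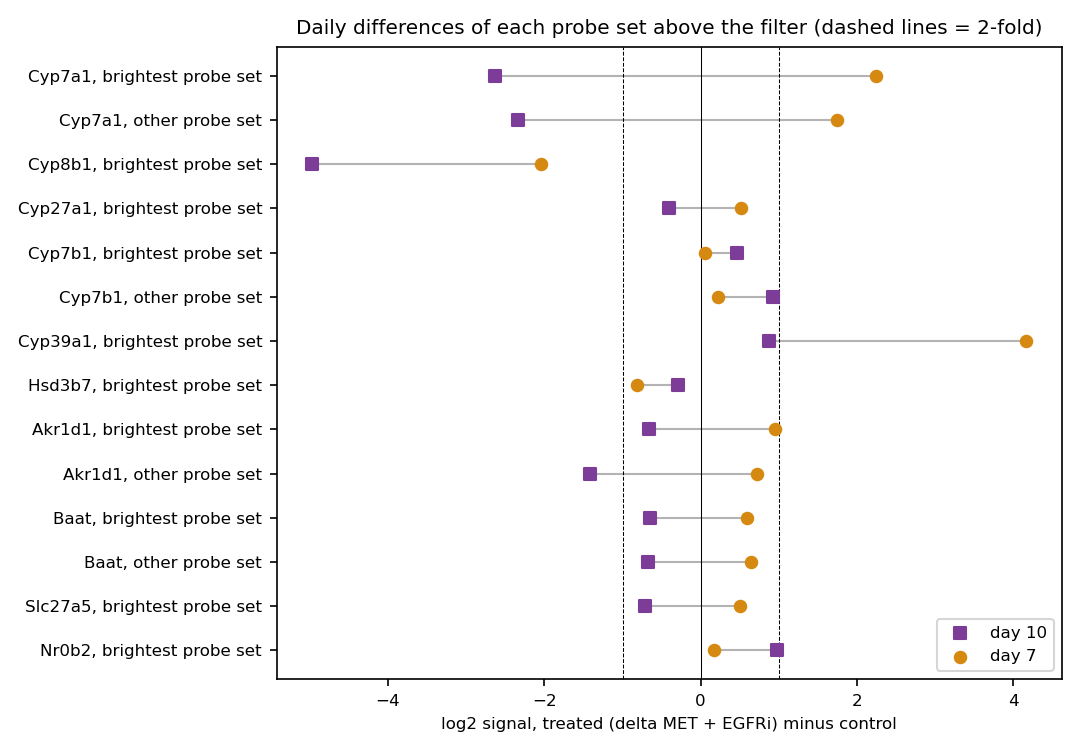
Log2 difference in signal between treated (delta MET + EGFRi) and control livers at day 10 (squares) and day 7 (circles) for the 14 probe sets of the 10 genes above the filter, with dashed lines at 2-fold. Probe sets of the same gene lie on the same sides of 0, and both of Cyp7a1 cross from above 1 at day 7 to below -1 at day 10.

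Of the 16 probe sets of the 10 genes, 14 passed the filter on dim signals, and 4 genes had a further probe set there as a check. Cyp8b1 and Cyp39a1 were among the genes without one. The other probe set of Cyp7a1 had 166 and 1618 units in treated livers at day 10 and day 7, against 840 and 481 units in control livers. It was 5.06-fold lower at day 10 and 3.36-fold higher at day 7, the order seen with the brightest one. The other probe set of Cyp7b1 gave log2 differences of 0.93 at day 10 and 0.22 at day 7, that of Akr1d1 -1.42 and 0.71, and that of Baat -0.67 and 0.65. Each kept the sign of the brightest probe set at each day, although Akr1d1 became 2.68-fold lower at day 10, against 1.59-fold with the brightest. Of the 2 that did not pass, that of Cyp27a1 lay under the floor of 64.8 units on all 4 arrays, and that of Cyp7b1 lay between 63.3 and 152 units.

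Other genes of bile acid metabolism were taken from lists of enzymes, regulators and transporters. Of 12 kept genes of 14 listed enzymes (oxysterol enzymes, peroxisomal side-chain oxidation and electron carriers), 0 passed limma's test. For 7 of the 12 both treated arrays lay below both control arrays, against 24.1% of all kept genes, and for 1 above, against 20.3%. Their log2 differences had a median of -0.47 at day 10 and -0.37 at day 7, so that the median was below 0 on both days, while 5 of the 12 were not lower on both days. The largest difference over both days was that of Abcd3, a peroxisomal transporter singled out after its values were seen, with 6008 and 8064 units in treated livers at day 10 and day 7, against 14341 and 14627 units in control livers (adjusted p = 0.151 by limma).

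Among 14 regulators, all kept, 0 passed the test, and both treated arrays lay above both controls for 8 (20.3% of all kept genes) and below for 2 (24.1% of kept genes). Their log2 differences had a median of 0.25 at day 10 and 0.35 at day 7. The receptor CAR (Nr1i3), a sensor of foreign compounds and bile acids, was at least 2-fold higher at both days, with 2328 and 6930 units in treated livers at day 10 and day 7, against 666 and 1615 units in control livers (log2 difference 1.95 ± 0.60, SE; n = 2; adjusted p = 0.284 by limma). The receptors through which SHP acts were higher on both treated arrays than on both control arrays, without passing the test. Nr5a2 had 2760 and 2737 units in treated livers, against 2281 and 2207 units in control livers, and Hnf4a, also listed as a hepatocyte marker, had 20477 and 22745 units, against 13262 and 10643 units in control livers. The bile acid receptor FXR (Nr1h4) had 1199 and 2874 units in treated livers at day 10 and day 7, against 2094 and 929 units in control livers. Like Cyp7a1 it was higher at day 7 and lower at day 10 than its control array, and higher in control livers at day 10 than at day 7. Nr5a2, Hnf4a and Nr1h4 were singled out for their role with SHP.

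Of 12 listed transporters 9 were kept (not Abcc4, Slc51a and Slc51b), and 1 of these fell by limma, against 0.283% of all kept genes. It was the organic anion carrier Slco1a1, with 624 and 484 units in treated livers at day 10 and day 7, against 6148 and 6237 units in control livers (log2 difference -3.49 ± 0.22, SE; n = 2; adjusted p = 0.00228 by limma). The median of the list was -0.39 at day 10 and 0.18 at day 7. The bile salt uptake carrier Slc10a1, singled out after its values were seen, had 9550 and 28154 units in treated livers, against 12912 and 13257 units in control livers, again lowest at day 10 and highest at day 7. The bile salt export pump Abcb11, singled out for its role, had 10492 and 9602 units in treated livers, against 16138 and 12096 units in control livers (adjusted p = 0.483 by limma). The uptake carrier Slco1a4, singled out after its values were seen, had 1137 and 4050 units in treated livers, against 763 and 365 units in control livers (adjusted p = 0.288 by limma).

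**Figure D4:**
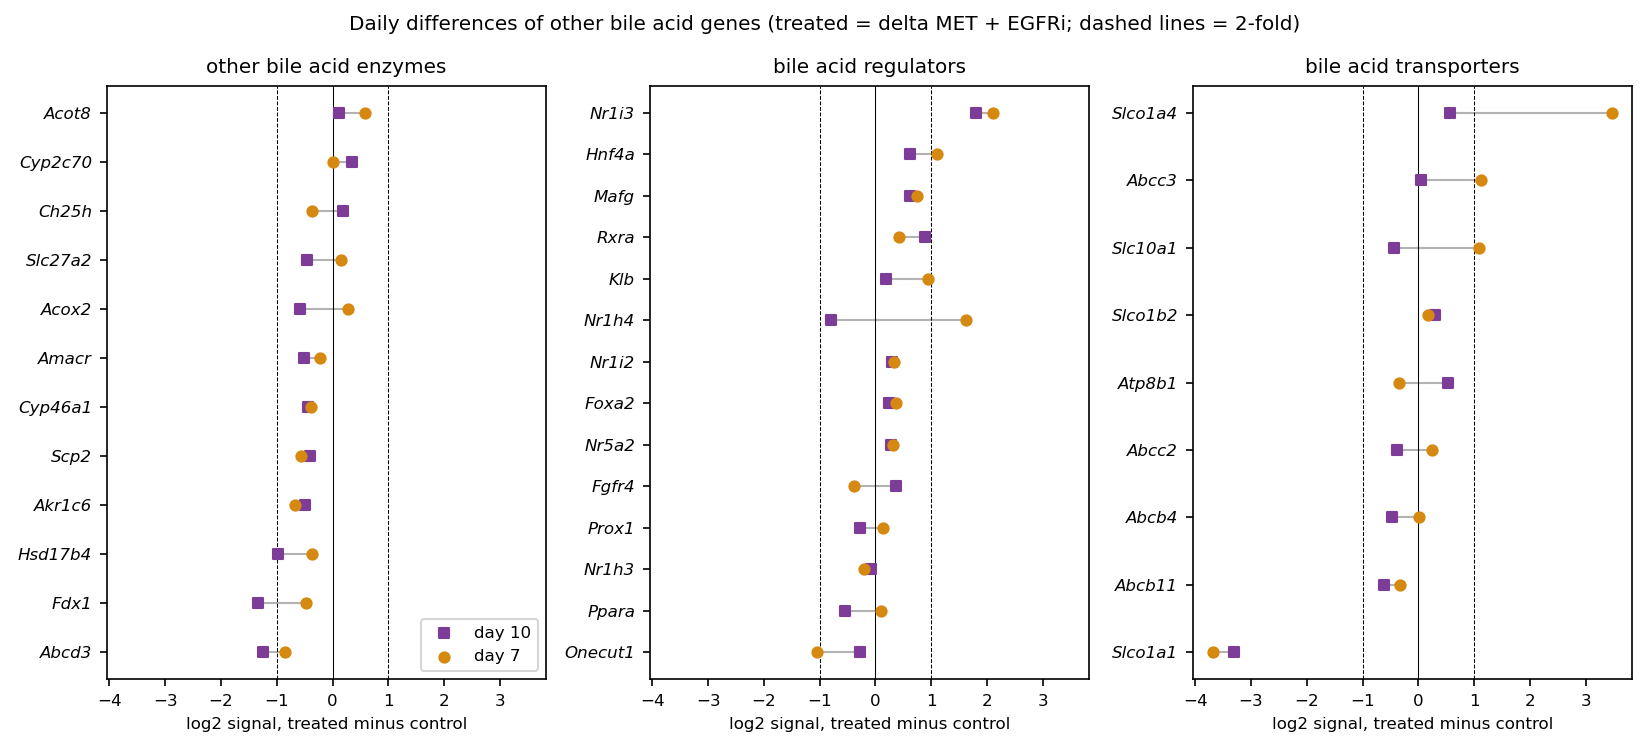
Log2 difference in signal between treated (delta MET + EGFRi) and control livers at day 10 (squares) and day 7 (circles) for the kept genes of 3 lists: other bile acid enzymes, regulators and transporters, with dashed lines at 2-fold. Slco1a1 lies below -3 on both days, Nr1i3 above 1 on both days, and 7 of 12 other enzymes lie below 0 on both days.

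Markers of the tissue and of other cells moved on the same arrays. The liver label was checked with 9 hepatocyte markers, all above the filter, whose summed signal was 312800 and 385400 units in treated livers at day 10 and day 7, against 307700 and 312900 units in control livers. Their log2 differences had a median of 0.06 at day 10 and 0.58 at day 7, beside -0.53 and 0.51 for the 10 bile acid genes. The day 7 median of the markers is the value of Ass1, the dimmest of the 9. Its probe set had 264 and 466 units in treated livers, against 435 and 312 units in control livers. Of 14 macrophage and Kupffer cell markers 3 rose by limma (Cd163, C1qc and Vsig4), against 0.375% of all kept genes, and both treated arrays lay above both controls for 12, against 20.3% of kept genes. Their summed signal was 54580 and 54830 units in treated livers, against 14730 and 25500 units in control livers. Neutrophil markers summed to 9338 and 9355 units over 8 genes in treated livers, against 3416 and 3381 units, with Camp under the floor on all arrays. Of 7 kept genes 2 rose by limma (S100a8 and S100a9), against 0.375% of all kept genes. S100a8 had 3656 and 3352.5 units in treated livers, against 304.8 and 388.4 in control livers, and S100a9 1701.5 and 1554.6 units, against 274.7 and 119.6. Both treated arrays lay above both controls for 4 of the 7 (20.3% of kept genes), while the granule genes Elane, Mpo and Ltf overlapped between the groups. The part of these cells in the levels of the bile acid genes was not tested.

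For the remaining cell types, summed signals of cholangiocyte markers were 2567 and 1651 units in treated livers at day 10 and day 7, against 2021 and 2410 units in control livers, and Krt19 and Krt7 lay under the filter and Cftr under the floor on both control arrays. Endothelial markers summed to 11240 and 7990 units, against 7636 and 8788 in control livers, and stellate cell markers to 7488 and 6201 units, against 7824 and 6899. B and plasma cell markers summed to 11150 and 12950 units in treated livers, against 3613 and 5349 in control livers. Most of the treated sums was Ighm (7610 and 9578 units, against 1017 and 2716 in control livers). Of 6 kept genes 1 rose by limma (Jchain), against 0.375% of all kept genes. Their log2 differences had a median of 0.13 at day 10 and -0.03 at day 7. Both treated arrays lay above both controls for Jchain and Ighm (20.3% of all kept genes). They lay below for Cd79b and Ms4a1 (24.1% of kept genes). T and NK cell markers summed to 3244 and 2527 units, against 2456 and 2499, with Cd3d under the floor on both control arrays. Of the 6 genes in these sums only Cd3e and Cd8a passed the filter. Most of each sum was Cd8a (2374 and 1735 units, against 1582 and 1809 in control livers), so the sums say little about these cells. The 3' to 5' ratio of the Gapdh control probes, a sign of RNA quality, was 1.09 and 1.22 on treated arrays at day 10 and day 7, against 1.14 and 0.98 on control arrays. That of the actin probes was 1.98 and 2.28, against 2.59 and 1.81. Median signals of the 4 arrays ranged from 210.5 to 223.9 units, and Pearson's r of log2 signals between arrays, over probe sets that are not independent, ranged from 0.890 to 0.914.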

How the data were processed

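The deposited values are intensity (signal) values per probe set on a linear scale, made with MAS5 per the submitters' processing notes (no version given). Their mean after trimming was 500 on each array. Of 45101 probe sets 64 were controls, and 34945 of the rest had a single gene symbol in the platform annotation (932 had several and 9160 none). By Entrez ID 99.42% of these matched RefSeq (GRCm38.p6), with 0 symbols updated. Signals under the 25th percentile (64.8) were raised to that floor and log2-transformed. A gene was kept if its mean over the 4 arrays exceeded the overall probe set median.

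The treated group was set against control with limma 3.58.1 under R 4.3.3 (a linear model and eBayes with intensity trend, two-sided, Benjamini-Hochberg adjustment over 11993 genes), with 2 arrays per group and 2 residual degrees of freedom. The p-values measure only the spread between these pooled arrays, days included. The step was tested on simulated data. Differences are treated minus control.

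Alternatives were quantile normalization, equal medians, other floors, filters and size rules, the mean of probe sets, no trend, day as a block, each array left out, and each other probe set. The labels give no replicate numbers that pair arrays. The size rule for opposite days was added after seeing the data. Members and lists were chosen with earlier results of these data known. Named from other lists were genes that pass the test or are 2-fold apart at both days, and those said to be singled out. A planned comparison of protein sequences was not made. Figures used Python 3.11.15 and matplotlib 3.10.9.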

Additional observations from a re-analysis of the deposited data

Results flagged for a closer look

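For 5 of the 10 genes the treated array lay above its control at day 7 and below it at day 10. The effect at day 10 minus that at day 7, on the log2 scale, was -4.86 for Cyp7a1, -1.62 for Akr1d1, -1.25 for Baat, -1.22 for Slc27a5 and -0.927 for Cyp27a1. With 1 array per group and day, these differences between the days were not tested. Of all kept genes 18.3% had this order of signs. The value of Cyp7a1 ranked 7 from the lowest among the 11993 kept genes and includes a 2.13-fold higher signal at day 10 than at day 7 in control livers.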

How the results depend on the processing

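Over all genes 79 passed as reported, 42 with the mean of probe sets, 42 without the intensity trend, 47 with day as a block (replicate block), 162 at an adjusted p under 0.1, and from 24 to 466 when an array was left out. Without a filter on dim genes limma called 0 of 18193 (1918 had an unadjusted p under 0.05). The fits that gave the highest counts left 1 treated array, so that the spread came from the control arrays alone. Of the 10 genes 0 passed in each setting that kept all 4 arrays, including the block, and leaving out an array gave 0 to 1 called higher and 0 to 2 called lower. At 1.5-fold, 1 gene was higher at both days (4.1% of all kept genes) and 3 were higher at day 7 and lower at day 10 (1.03% of kept genes).

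Of 134 values over both days under the alternatives, 118 kept their direction and side of the threshold, 12 reversed and 4 passed only with a treated array left out. Reversed were Cyp27a1 after quantile normalization (-0.0332) and Akr1d1 with the mean of probe sets (-0.10) and its other probe set (-0.35), none of which passes. With an array left out, values ranged from -2.08 to 1.69 for Cyp7a1, -0.44 to 0.55 for Cyp27a1, -0.61 to 0.90 for Akr1d1, -0.51 to 0.45 for Baat, -0.58 to 0.37 for Slc27a5 and -0.0393 to 1.19 for Nr0b2. The cause was not tested beyond the daily values given above. Of 100 daily differences under other normalizations, floors or probe set rules, 99 moved by less than the gene's SD within groups. The other was Cyp7b1 at day 7 (-0.32 with the mean of probe sets, which includes a dim one). The number of arrays and pooling limit the precision.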

Other observations

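The 21 genes that were 2-fold higher at day 7 and 2-fold lower at day 10 in treated livers held, beside Cyp7a1, the gene Csad. Its product acts in the synthesis of taurine, the main partner of bile acids in mouse conjugation. Csad was named after its values were seen. Csad had 4275 and 13844 units in treated livers at day 10 and day 7, against 14846 and 5708 units in control livers. The log2 differences of Csad were -1.80 at day 10 and 1.28 at day 7. Like each of the 21 genes, Csad was higher in control livers at day 10 than at day 7, an order that the rule favours. Epha2, an ephrin receptor, had 74.9 and 1108 units in treated livers, against 547 and 78.6 units in control livers. Its 2 low values lie just above the floor of 64.8 units and under the dim-signal limit of 204, so the size of its change between the days is uncertain.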
